A study of Rattus norvegicus with 12 samples.

Results

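Acta2, Tagln, Actb and Vim are 4 genes of the contractile and structural skeleton of the cell, and were followed through adult rat ventricular fibroblasts grown on a soft or a rigid surface. They were taken by Ensembl identifier, as ENSRNOG00000058039 for Acta2, ENSRNOG00000017628 for Tagln, ENSRNOG00000034254 for Actb and ENSRNOG00000018087 for Vim, out of 32623 genes in the deposited table. All 4 identifiers were found, and all 4 were among the 14660 genes that passed the filter on low counts.

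Cells of passage 6 and of passage 3 were each kept on soft gel or on plastic, which gave 4 groups of 3 libraries. Soft gel is a flat hydrogel made of poly(ethylene glycol) norbornene, and plastic is tissue culture polystyrene, the rigid material of ordinary dishes. These surfaces differ in material as well as in stiffness, and effects of stiffness and of material cannot be told apart in any comparison here. A passage is one round of detaching cells and plating them again. The cells of all groups were wild-type fibroblasts of the adult rat heart kept in DMEM/F-12 with 20% fetal bovine serum, and the labels give 48 h for the treatment and no strain, sex or animal for a replicate. Since the labels do not say whether replicates came from separate animals, p-values measure only the spread between these libraries. The title names substrate stiffness, fibroblast activation, senescence and secretion as the subject of the series.

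Fibroblasts that become activated turn into myofibroblasts, cells that build thick bundles of actin and myosin called stress fibres and pull on the matrix around them. Acta2 encodes smooth muscle alpha-actin, the actin isoform taken up into the stress fibres of myofibroblasts and the usual marker of that state in the heart. Tagln encodes transgelin, also known as SM22-alpha, a small protein of the calponin family that binds actin filaments. Actb encodes cytoplasmic beta-actin, present in almost all cells and often used as a reference gene in expression assays. Vim encodes vimentin, the intermediate filament protein typical of mesenchymal cells, fibroblasts among them. On a stiff surface, assembly of actin filaments lowers the pool of free actin monomers, which releases the coactivators MRTF-A and MRTF-B to enter the nucleus and act with serum response factor. That factor binds a short element called the CArG box, and the genes of smooth muscle alpha-actin and transgelin are classic targets.

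RefSeq promoter sequences were at hand for 2 of the 4 genes, Acta2 and Vim. In the fit with pairs below, soft gel lowered Acta2 and did not detectably move Vim. Tagln and Actb, also lowered there, had no sequence at hand, and no link between sequence and level was tested. Each is the stretch of 250 bases that ends just before the RefSeq start of the gene in the rat build GRCr8, read along the strand of the gene. It comes from chr1:241172504-241172753 on the minus strand for Acta2 and from chr17:81577011-81577260 on the plus strand for Vim. Capitals mark CArG-like elements, in which at most 1 of the 6 inner bases is C or G.
Acta2: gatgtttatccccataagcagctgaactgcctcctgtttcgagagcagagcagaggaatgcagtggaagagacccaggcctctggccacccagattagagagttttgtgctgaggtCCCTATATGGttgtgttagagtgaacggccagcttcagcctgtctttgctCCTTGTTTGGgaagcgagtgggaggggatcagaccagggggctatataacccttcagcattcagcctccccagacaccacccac
Vim: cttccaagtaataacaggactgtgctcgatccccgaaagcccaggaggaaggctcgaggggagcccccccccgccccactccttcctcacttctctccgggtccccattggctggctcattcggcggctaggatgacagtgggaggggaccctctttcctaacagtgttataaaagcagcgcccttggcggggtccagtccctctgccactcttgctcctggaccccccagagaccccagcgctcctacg

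The Acta2 window held 2 CArG-like elements, CCCTATATGG at positions -134 to -125 and CCTTGTTTGG at positions -84 to -75, counted back from -1 at the base before the start. In each of them 1 inner base is C or G, so no element matched the strict CArG box with all 6 inner bases A or T. The Vim window held none of either kind. The pattern reads the same on both strands, the elements of Acta2 do not overlap, and no other motif was searched. Of 33469 rat promoters of the same length, 8.08% held at least 1 such element, 0.693% held at least 2 and 1.5% held a strict CArG box. A match in these letters is a description and does not show binding.

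The libraries held between 47834926 and 71464905 counts, and each of the 4 genes had between 84117 and 550660 counts in a library. Together they took between 1.38% and 2.94% of all counts of a library. Levels are given as CPM, counts per 1000000 after scaling the libraries to each other by TMM. CPM is not corrected for the length of the transcript, so levels are compared between libraries and not between genes. Reads of near-identical gene copies, such as those of the other actins, could be assigned to the wrong actin, and the way the counts were made is not given in the sources used here. On the second principal component of the 500 most variable genes, the soft gel and plastic libraries of replicate number 3 at passage 6 stood at -45.8 and -50.4, apart from the other 10 libraries between -6.02 and 28.6. Within a passage, the soft gel and the plastic library that share a number deviated from their groups in the same genes, and each such couple is treated as a pair below. The 4 genes are named by identifier alone, and the deposited table pairs no identifier with a name, so markers of other cell types and further genes of the stress fibre were not analysed here. The level of Vim, at 0.38% to 0.79% of counts in every library, is the one measurement made here that bears on the mesenchymal nature of the cells.

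**Figure D1:**
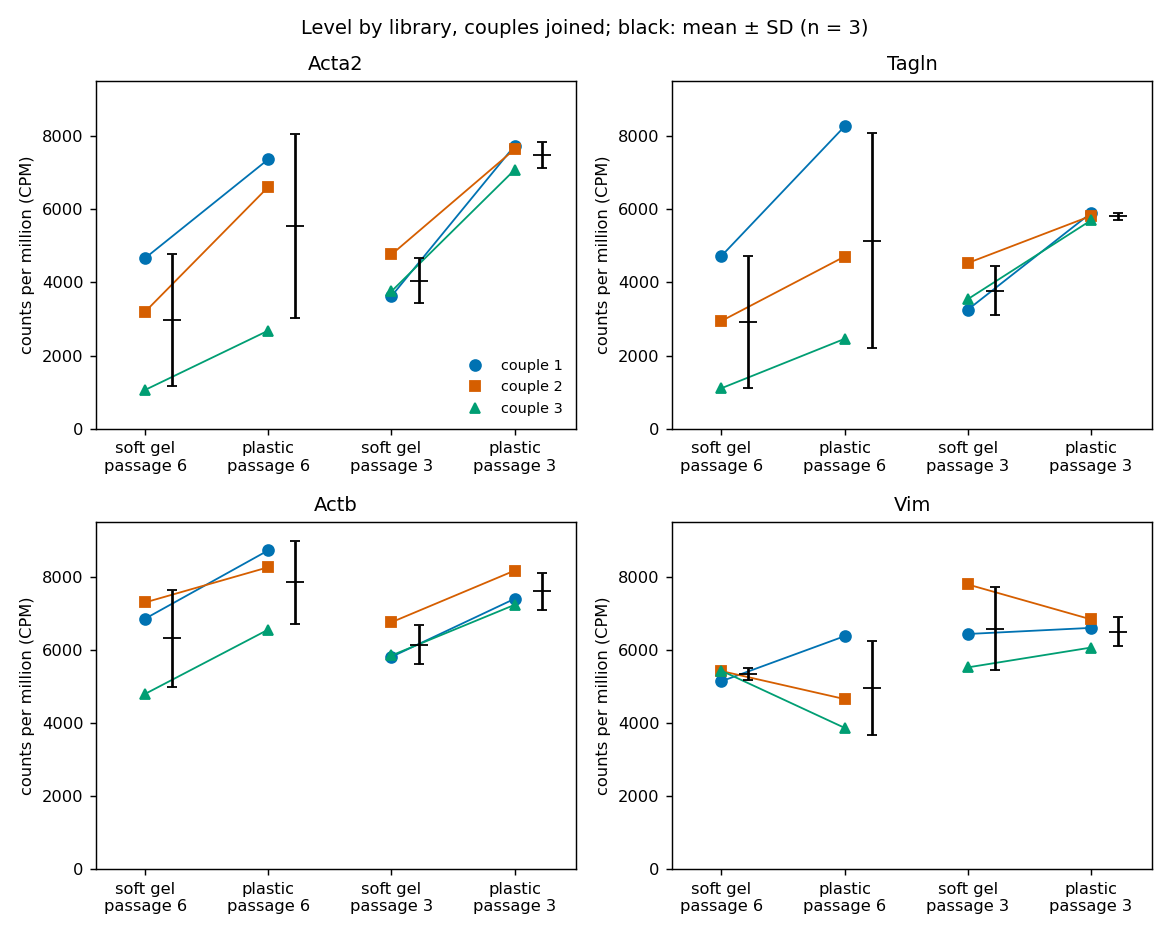
Level of each gene in CPM (vertical axis, from 0) in the 12 libraries of the 4 groups (horizontal axis). Coloured points are libraries, lines join the soft gel and plastic library of a couple, and black bars give the mean ± SD of 3 libraries; the lines of Acta2, Tagln and Actb rise to plastic in all 6 couples, while those of Vim go both ways.

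The comparison of soft gel with plastic at passage 3 asks whether the contractile genes differ between these surfaces in cells passaged few times. Acta2, Tagln and Actb were lower on soft gel in each of the 3 couples, by most for Acta2 and least for Actb, and Vim was lower in 2 couples and higher in 1. With a term for each couple in the model, 3 of the 4 genes passed the threshold of 0.05, all 3 as lower on soft gel, where 9.9% of all genes tested were called lower and 18.8% in either direction. With the couple as a random effect in limma-voom, whose correlation is estimated, 0 of the 4 passed, against 2407 of 14660 genes. The limma adjusted p was 0.0778 for Acta2, 0.191 for Tagln and 0.0859 for Actb. Without a term for the couple, 0 of the 4 passed in edgeR, where 2.3% of all genes were called, and 0 had an unadjusted p under 0.05. In DESeq2 without pairs 0 of the 4 passed, against 1256 of 14660 genes. With the libraries of passage 3 alone and no pairs, 2 of the 4 passed in edgeR, with 2109 genes called. These were Acta2 and Tagln, and Actb missed the threshold (edgeR adjusted p = 0.0865). The median log2 fold change of the 4 genes with pairs was -0.47, and that of all genes tested was -0.01.

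On soft gel, Acta2 stood at 3623, 4760 and 3755 CPM in libraries 1, 2 and 3, and on plastic at 7733, 7636 and 7073 CPM. The groups did not overlap, as was so for 18.6% of all genes in this direction, and the lowest plastic library was well above the highest on soft gel. The mean was 4046 ± 622 CPM on soft gel and 7481 ± 356 CPM on plastic (SD, n = 3). With pairs Acta2 fell on soft gel with a log2 fold change of -0.90 ± 0.13 (SE, edgeR adjusted p = 0.00185). Without pairs the same difference, -0.89 ± 0.46, missed the threshold (edgeR adjusted p = 0.326). That fit takes its spread from all 4 groups. With the libraries of passage 3 alone and no pairs, the difference was -0.89 ± 0.12 (edgeR adjusted p = 0.00285). Within couples 1, 2 and 3 the soft gel level was 0.468, 0.623 and 0.531 times that on plastic, and 30% of all genes tested were lower on soft gel in all 3 couples. The edgeR call with pairs held when any 1 of the 6 couples of either passage was left out, at adjusted p up to 0.0257. It was lost with the couple as a random effect (limma adjusted p = 0.0778) and in DESeq2's Wald test with pairs at default dispersions (DESeq2 adjusted p = 0.252).

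Tagln followed Acta2 with a smaller difference. It stood at 3250, 4526 and 3538 CPM in soft gel libraries 1, 2 and 3, against 5891, 5813 and 5692 CPM in the plastic libraries. The plastic libraries lay close together, at 5799 ± 101 CPM, and all were above the soft gel libraries, at 3771 ± 669 CPM (SD, n = 3). Soft gel library 2 was the highest of its group for Acta2, Tagln, Actb and Vim alike. With pairs Tagln fell on soft gel, with a log2 fold change of -0.64 ± 0.12 (SE, edgeR adjusted p = 0.00666), and without pairs the value was -0.62 ± 0.48 (edgeR adjusted p = 0.521). With the libraries of passage 3 alone and no pairs, it was -0.62 ± 0.13 (edgeR adjusted p = 0.0155). The call with pairs was lost without couple 1 of passage 3, at -0.52 (edgeR adjusted p = 0.0701), and without couple 3, at -0.61 (edgeR adjusted p = 0.0621). It was also lost with the couple as a random effect (limma adjusted p = 0.191) and in DESeq2's Wald test with pairs (DESeq2 adjusted p = 0.346).

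Actb showed the smallest difference of the 3 and the most even one. It stood at 5807, 6754 and 5845 CPM in soft gel libraries 1, 2 and 3, against 7395, 8165 and 7230 CPM on plastic, with no overlap between the groups. Within couples 1, 2 and 3 the soft gel level was 0.785, 0.827 and 0.809 times that on plastic. With pairs Actb fell, with a log2 fold change of -0.31 ± 0.08 (SE, edgeR adjusted p = 0.0297), and without pairs the value was -0.31 ± 0.17 (edgeR adjusted p = 0.358). The call was lost without couple 1, 2 or 3 of passage 3, at edgeR adjusted p of 0.180, 0.0831 and 0.160, and with the couple as a random effect (limma adjusted p = 0.0859). It was also lost with pairs when libraries were scaled by their totals alone, which moved the median of all genes by 0.12 on the log2 scale and Actb to -0.18 (edgeR adjusted p = 0.144).

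Vim did not share this pattern. It stood at 6433, 7788 and 5520 CPM on soft gel and at 6599, 6833 and 6061 CPM on plastic, so the groups overlapped. Within couples the soft gel level was 0.975, 1.14 and 0.911 times that on plastic. The log2 fold change with pairs was 0.01 ± 0.14 (SE, edgeR adjusted p = 0.985), and without pairs it was 0.02 ± 0.18 (edgeR adjusted p = 0.972). A difference of the size seen for Acta2 lies far outside that error, while one of the size seen for Actb is about 2 of these standard errors away.

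**Figure D2:**
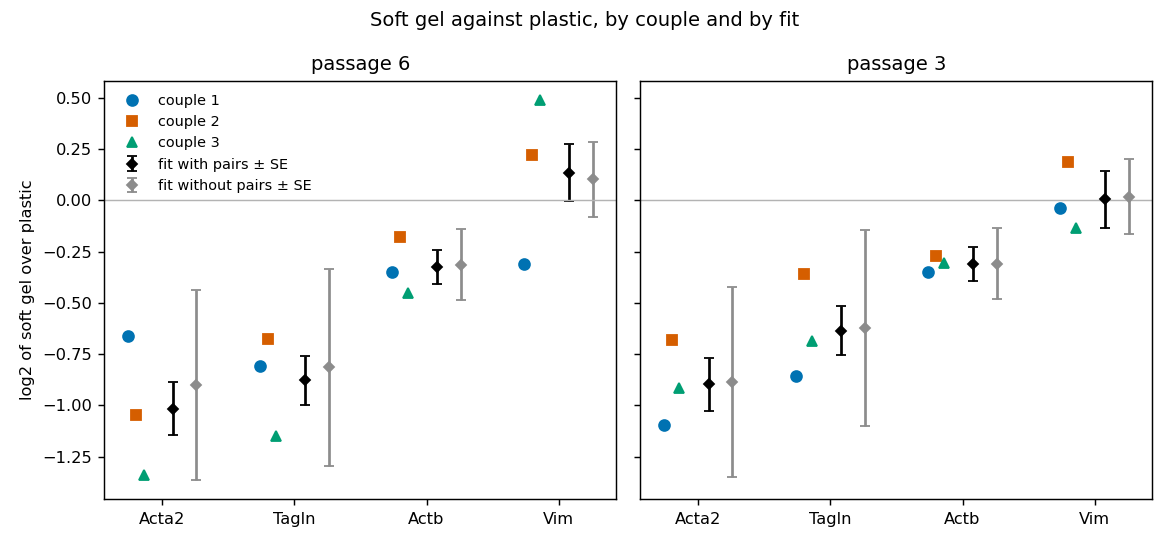
Log2 of soft gel over plastic (vertical axis) for the 4 genes at passage 6 and passage 3. Coloured points are single couples, black diamonds the fit with pairs and grey diamonds the fit without pairs, each ± SE; for Acta2 at passage 3 these are -0.90 ± 0.13 and -0.89 ± 0.46.

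The same comparison at passage 6 sets soft gel against plastic in cells passaged more often. Acta2, Tagln and Actb were again lower on soft gel in each of the 3 couples, and Vim was lower in 1 and higher in 2. With pairs 3 of the 4 genes passed, all as lower on soft gel, against 12.6% of all genes called lower and 24.9% in either direction. Without pairs 0 of the 4 passed in edgeR, where 9.96% of all genes were called and 0 of the 4 had an unadjusted p under 0.05. With the libraries of passage 6 alone and no pairs, 0 of the 4 passed in edgeR, with 189 genes called. In DESeq2 without pairs 0 of 4 passed, against 2269 of 14660 genes, with 1 unadjusted p under 0.05. With limma-voom and the couple as a random effect, 3434 of 14660 genes were called and 1 of the 4 passed. That gene was Acta2 (limma adjusted p = 0.0347), while Tagln and Actb missed the threshold (limma adjusted p = 0.0619 and 0.0635). The median log2 fold change of the 4 genes with pairs was -0.60, against 0.0003 for all genes.

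At passage 6, Acta2 stood on soft gel at 4663, 3198 and 1061 CPM in libraries 1, 2 and 3, and on plastic at 7363, 6609 and 2682 CPM. The groups overlapped, because plastic library 3 lay below soft gel libraries 1 and 2, while within every couple the soft gel library was the lower one. Couple 3, the one that stood apart on the second principal component, had the lowest level on either surface. The soft gel level was 0.633, 0.484 and 0.396 times that on plastic within couples 1, 2 and 3, and 25.6% of all genes tested were lower on soft gel in these 3 couples. With pairs Acta2 fell with a log2 fold change of -1.01 ± 0.13 (SE, edgeR adjusted p = 0.000589), and without couple 3 of passage 6 with -0.85 ± 0.13 (edgeR adjusted p = 0.00304). Without pairs the value was -0.90 ± 0.46 (edgeR adjusted p = 0.268), and leaving out both libraries of couple 3 gave -0.83 ± 0.20 (edgeR adjusted p = 0.0380). The call with pairs was lost in DESeq2's Wald test at default dispersions (DESeq2 adjusted p = 0.152).

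Tagln had the order of Acta2 among the 6 libraries, except that soft gel library 1 and plastic library 2 were level. It stood at 4719, 2944 and 1106 CPM on soft gel and at 8260, 4704 and 2455 CPM on plastic, in libraries 1, 2 and 3. The groups overlapped, since soft gel library 1 was just above plastic library 2 and well above plastic library 3. With pairs Tagln fell with a log2 fold change of -0.88 ± 0.12 (SE, edgeR adjusted p = 0.000791), and without couple 3 with -0.74 ± 0.12 (edgeR adjusted p = 0.00460). Without pairs the value was -0.81 ± 0.48 (edgeR adjusted p = 0.341). The call was lost with the couple as a random effect (limma adjusted p = 0.0619) and in DESeq2's Wald test with pairs (DESeq2 adjusted p = 0.124).

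Actb stood at 6851, 7296 and 4796 CPM on soft gel and at 8719, 8258 and 6554 CPM on plastic. Library 3 was the lowest of each group, and plastic library 3 lay below soft gel libraries 1 and 2, so the groups overlapped. Within couples 1, 2 and 3 the soft gel level was 0.786, 0.884 and 0.732 times that on plastic. With pairs Actb fell with a log2 fold change of -0.33 ± 0.08 (SE, edgeR adjusted p = 0.0184), and without pairs the value was -0.31 ± 0.17 (edgeR adjusted p = 0.301). The call with pairs was lost without couple 1 or 3 of passage 6 (edgeR adjusted p = 0.0536 and 0.0901), without couple 3 of passage 3 (edgeR adjusted p = 0.0501), with the libraries of passage 6 alone in the fit (edgeR adjusted p = 0.0920) and with library totals alone (-0.15, edgeR adjusted p = 0.188), a scaling that moved the median of all genes by 0.17.

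Vim stood at 5141, 5420 and 5428 CPM on soft gel and at 6373, 4655 and 3868 CPM on plastic. The soft gel libraries were nearly level, at 5330 ± 163 CPM, inside the wider spread of the plastic libraries, at 4965 ± 1281 CPM (SD, n = 3). Within couples 1, 2 and 3 the soft gel level was 0.807, 1.16 and 1.40 times that on plastic. The log2 fold change with pairs was 0.13 ± 0.14 (SE, edgeR adjusted p = 0.545), and without couple 3 of passage 6 it was -0.04 ± 0.14 (edgeR adjusted p = 0.880). Without couple 1 of passage 6 it was 0.35 ± 0.11 (edgeR adjusted p = 0.0554). In these bulk libraries, a lower level can come from fewer cells with a given transcript or from less of it per cell, and these cannot be told apart, here and in the other comparisons.

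Over both passages, the CPM of Acta2, Tagln and Actb was lower on soft gel in 6 of 6 couples, as for 15.2% of all genes tested. For Actb this depends on the scaling, whose TMM factors were 1.02 to 1.11 on soft gel and 0.909 to 0.993 on plastic. As a share of counts, Actb was higher on soft gel in couple 2 of passage 6, at 0.761% against 0.750% on plastic. The soft gel level was between 0.396 and 0.633 times that on plastic for Acta2, between 0.450 and 0.779 times for Tagln, and between 0.732 and 0.884 times for Actb. By CPM, Vim was lower on soft gel in 3 of 6 couples, with ratios between 0.807 and 1.40. Its direction also depends on the scaling. As a share of counts, Vim was higher on soft gel in couple 1 of passage 3, at 0.665% against 0.615% on plastic, and the remaining couples kept their direction. With pairs and library totals alone, its log2 fold change was 0.13 at passage 3 and 0.31 at passage 6 (edgeR adjusted p = 0.524 and 0.117).

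Ratios of counts within a library do not depend on how libraries are scaled to each other. The ratio of Acta2 to Vim was 0.563, 0.611 and 0.680 in the soft gel libraries of passage 3 and 1.17, 1.12 and 1.17 in the plastic libraries of passage 3. All soft gel libraries were thus below all plastic libraries, as was so for 11.8% of the other genes tested when set against Vim. At passage 6 the ratio was 0.907, 0.590 and 0.195 on soft gel and 1.16, 1.42 and 0.693 on plastic, where plastic library 3 was below soft gel library 1.

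For Tagln the ratio to Vim was 0.505, 0.581 and 0.641 on soft gel and 0.893, 0.851 and 0.939 on plastic at passage 3. At passage 6 it was 0.918, 0.543 and 0.204 on soft gel and 1.30, 1.01 and 0.635 on plastic. The ratios of Acta2, Tagln and Actb to Vim were each lower on soft gel in 6 of 6 couples, as were 11% of the ratios of all other genes tested to Vim. That of Actb did not overlap between the surfaces at either passage. At passage 6 it was 1.33, 1.35 and 0.884 on soft gel and 1.37, 1.77 and 1.69 on plastic. Couple 1 differed little, and 9.38% of the other genes tested were likewise lower without overlap there. By CPM the groups of Actb overlapped at passage 6, and the ratio also moves with Vim. Within couples 1, 2 and 3 of passage 6, Vim on soft gel was 0.807, 1.16 and 1.40 times its CPM on plastic. At passage 3 the ratio of Actb to Vim was 0.903, 0.867 and 1.06 on soft gel and 1.12, 1.19 and 1.19 on plastic.

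The actin isoforms were also set against each other. The ratio of Acta2 to Actb was 0.624, 0.705 and 0.642 on soft gel and 1.05, 0.935 and 0.978 on plastic at passage 3, with no overlap, as for 5.31% of all other genes set against Actb. At passage 6 it was 0.681, 0.438 and 0.221 on soft gel and 0.844, 0.800 and 0.409 on plastic, overlapping between the groups. It was lower on soft gel in all 6 couples, as were 3.9% of the ratios of all other genes to Actb. Acta2 and Tagln stayed closer to each other, with a ratio of 1.11, 1.05 and 1.06 on soft gel and 1.31, 1.31 and 1.24 on plastic at passage 3. There too the surfaces did not overlap. At passage 6 that ratio was 0.988, 1.09 and 0.959 on soft gel and 0.891, 1.40 and 1.09 on plastic. It was lower on soft gel in 5 of 6 couples over both passages and higher in couple 1 of passage 6. Ratios of all other genes to Tagln were not computed. The ratios are given as values and were not tested.

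**Figure D3:**
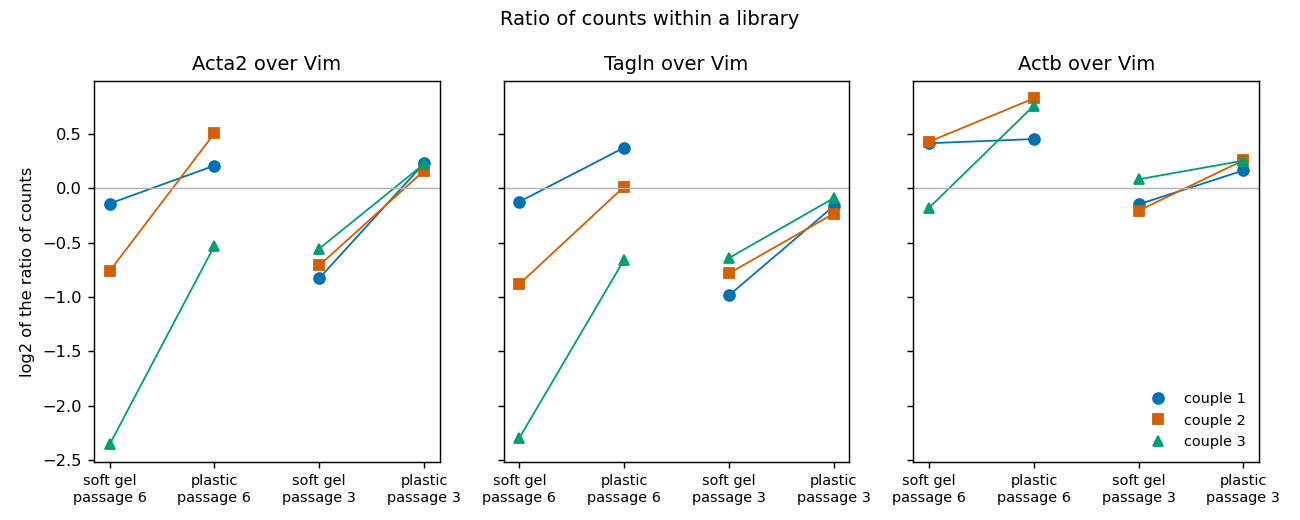
Log2 of the ratio of Acta2, Tagln or Actb counts to Vim counts within a library (vertical axis) in the 4 groups (horizontal axis), with couples joined by lines. All lines rise from soft gel to plastic, and the Acta2 and Tagln ratios of couple 3 at passage 6 are the lowest on soft gel, at 0.195 and 0.204 before taking logs.

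Whether passaging moved the genes is addressed by the comparisons of passage 6 with passage 3, first on plastic. Acta2 stood at 7363, 6609 and 2682 CPM at passage 6 and at 7733, 7636 and 7073 CPM at passage 3. Libraries 1 and 2 of passage 6 were near the level of passage 3, and library 3 was far below it. The difference was -0.43 ± 0.46 on the log2 scale (SE, edgeR adjusted p = 0.583), and without couple 3 of passage 6 it was -0.10 ± 0.18 (edgeR adjusted p = 0.767). Tagln, at 8260, 4704 and 2455 CPM at passage 6, lay above, below and far below the 3 libraries of passage 3, between 5692 and 5891 CPM. Its log2 fold change of -0.17 ± 0.48 (edgeR adjusted p = 0.845) turned to 0.16 ± 0.26 without couple 3 (edgeR adjusted p = 0.741).

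On plastic Actb differed by 0.05 ± 0.17 on the log2 scale (edgeR adjusted p = 0.888). Vim stood at 6373, 4655 and 3868 CPM at passage 6 and at 6599, 6833 and 6061 CPM at passage 3, with library 1 of passage 6 inside the range of passage 3. The difference was -0.39 ± 0.18 on the log2 scale (edgeR adjusted p = 0.183), and it passed the threshold without plastic library 1 of passage 6, at -0.61 (edgeR adjusted p = 0.0298). With all libraries, 0 of the 4 genes passed on plastic in edgeR, against 13.4% of all genes. Of the 4, 0 had an unadjusted p under 0.05 in edgeR, and in DESeq2 0 passed, with 1 unadjusted p under 0.05.

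On soft gel, Acta2 stood at 4663, 3198 and 1061 CPM at passage 6 and at 3623, 4760 and 3755 CPM at passage 3, and the groups overlapped. The difference was -0.44 ± 0.46 on the log2 scale (SE, edgeR adjusted p = 0.584), and -0.04 ± 0.18 without couple 3 of passage 6 (edgeR adjusted p = 0.909). Tagln differed by -0.37 ± 0.48 (edgeR adjusted p = 0.676), and by 0.02 ± 0.26 without that couple (edgeR adjusted p = 0.965). Actb differed by 0.04 ± 0.17 (edgeR adjusted p = 0.910). Vim was the one gene whose groups did not overlap, at 5141, 5420 and 5428 CPM at passage 6 and 6433, 7788 and 5520 CPM at passage 3, as was so for 15.1% of all genes in this direction. Its log2 fold change of -0.30 ± 0.18 did not pass (edgeR adjusted p = 0.316). On soft gel 0 of the 4 genes passed in edgeR, against 12.3% of all genes, with 0 unadjusted p under 0.05, and 0 in DESeq2. Replicate numbers did not pair the passages, and the labels do not say whether both passages came from the same cultures. An effect of passaging and a difference between cultures cannot be told apart.

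**Figure D4:**
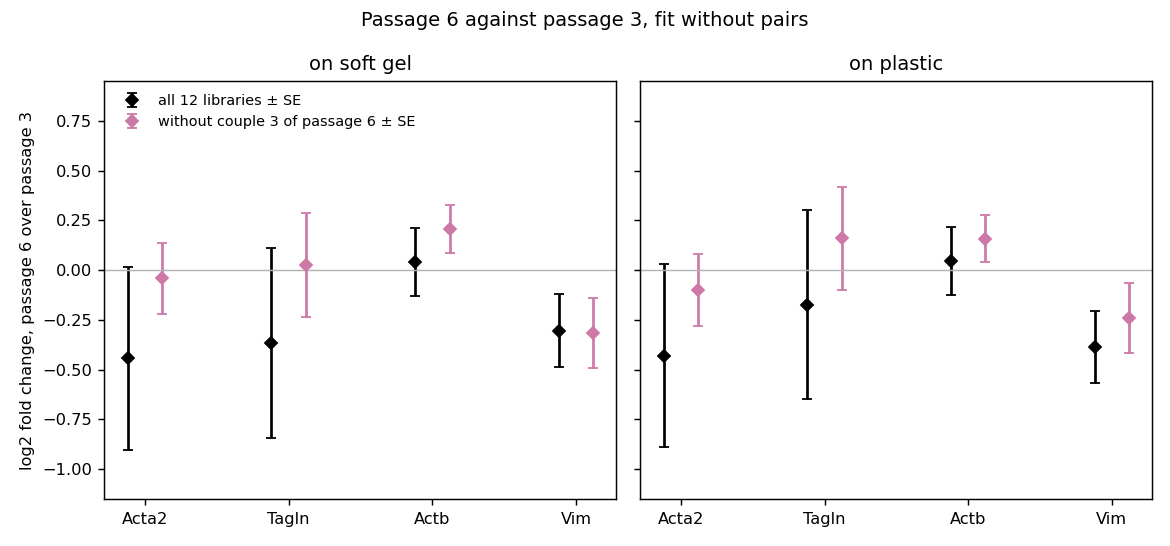
Log2 fold change of passage 6 over passage 3 (vertical axis) on soft gel and on plastic for the 4 genes, from the fit without pairs, ± SE. Black diamonds use all 12 libraries and pink diamonds leave out couple 3 of passage 6; for Acta2 on plastic they stand at -0.43 ± 0.46 and -0.10 ± 0.18.

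The spread between libraries was not tested and is given as a description. The coefficient of variation of Acta2 was 60.9% on soft gel and 45.3% on plastic at passage 6, and 15.4% on soft gel and 4.76% on plastic at passage 3. That of Tagln was 61.8% and 56.9% at passage 6 and 17.7% and 1.74% at passage 3, in the same order. The median coefficient over 10014 genes with a mean of at least 5 CPM was 11.1% and 12.4% at passage 6 and 9.20% and 7.06% at passage 3. Actb varied less, by 21.1% and 14.5% at passage 6 and 8.74% and 6.57% at passage 3. Without couple 3, the coefficient at passage 6 was 26.4% on soft gel and 7.63% on plastic for Acta2, and 32.8% and 38.8% for Tagln, from 2 libraries each, against a median over genes of 7.61% and 10.4%. Most of the spread of Acta2 on plastic at passage 6 thus came with couple 3. For Vim the widest spread was on plastic at passage 6, at 25.8%, and the narrowest on soft gel at passage 6, at 3.07%.

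Ordered by mean level, Acta2 was lowest on soft gel at passage 6, at 2974 ± 1811 CPM, and next came soft gel at passage 3, at 4046 ± 622 CPM. Plastic followed with 5551 ± 2514 CPM at passage 6 and 7481 ± 356 CPM at passage 3. Tagln had the same order, at 2923 ± 1807, 3771 ± 669, 5139 ± 2927 and 5799 ± 101 CPM. Without couple 3, the means of Tagln at passage 6 were 3831 CPM on soft gel and 6482 CPM on plastic, each above passage 3 on the same surface, while the order of Acta2 did not turn, at 3930 and 6986 CPM. With all libraries, each step for both genes to the next group was smaller than the larger of the SDs of those groups. Actb was ordered by surface, with soft gel at passage 3 (6135 ± 536) and passage 6 (6315 ± 1333) below plastic at passage 3 (7597 ± 499) and passage 6 (7844 ± 1140), again in steps smaller than the larger SD. Vim was ordered by passage, with plastic (4965 ± 1281) and soft gel (5330 ± 163) at passage 6 below plastic (6498 ± 396) and soft gel (6580 ± 1141) at passage 3, and the step between the passages was larger than the SD of either neighbour (SD, n = 3 throughout). Without couple 3, Vim at passage 6 averaged 5280 CPM on soft gel and 5514 CPM on plastic, which turns the order of the surfaces.

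An interaction term tested whether the effect of soft gel differed between the passages. With pairs the difference at passage 6 minus that at passage 3 was -0.12 ± 0.18 for Acta2 (SE, edgeR adjusted p = 0.817) and -0.24 ± 0.17 for Tagln (edgeR adjusted p = 0.55). It was -0.02 ± 0.12 for Actb (edgeR adjusted p = 0.970) and 0.13 ± 0.20 for Vim (edgeR adjusted p = 0.817). Thus 0 of the 4 genes passed with pairs in edgeR or in DESeq2, against 2.14% of all genes in edgeR, with 0 unadjusted p under 0.05. Without pairs the estimates were -0.01 ± 0.65, -0.19 ± 0.67, -0.005 ± 0.24 and 0.08 ± 0.26 for Acta2, Tagln, Actb and Vim, with adjusted p of at least 0.995, and 0% of all genes were called. With pairs 1 SE was about 0.2 on the log2 scale for Acta2, Tagln and Vim, and a dependence larger than that could have gone unseen. The value of Tagln, -0.24, was larger than its SE and did not pass.

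How alike the patterns were was measured as the root mean square difference, over the 12 libraries, between log2 CPM profiles after subtracting the mean of each gene. Among 10013 other genes with a mean of at least 5 CPM, Tagln was the closest to Acta2 and Acta2 the closest to Tagln, with a difference of 0.19. Actb ranked 537 and Vim 1995 in likeness to Acta2, at 0.61 and 0.74. Next to Acta2 after Tagln was ENSRNOG00000009514, at 0.24, a gene with no name in the files, with 2.18 to 16.7 CPM on soft gel and 4.98 to 21.8 CPM on plastic. Next to Tagln after Acta2 was ENSRNOG00000020246, at 0.21, with 258 to 1027 CPM on soft gel and 585 to 1548 CPM on plastic. Closest to Actb was ENSRNOG00000013286, at 0.08, and closest to Vim ENSRNOG00000032575, at 0.13. The 12 libraries share couples, and likeness is given as a description.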

How the data were processed

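RNA with poly(A) tails from 12 libraries was read from both ends over 150 bases, per the labels' protocols. The authors deposited counts per Ensembl gene that were not normalized. The build and tools named by the submitters' processing notes are Rnor_6.0, HISAT2 2.1.0, FastQC 0.11.5, Cuffnorm 2.2.1 and Cufflinks. No counting tool, strand setting or annotation release is given in the sources used here, so reads of antisense or overlapping genes and of near-identical copies could be miscounted. Groups and replicate numbers came from the labels, and 0 columns were unused. A RefSeq gene table (GRCr8) matched 0 of 32623 identifiers, so the gene and marker lists that had been drawn up could not be looked up and were not tested. The 4 genes, the lists and the tests were chosen with earlier results of these data known.

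Genes were filtered with filterByExpr by group (minimum count 10, minimum total 15), leaving 14660, and scaled by TMM. The test was the quasi-likelihood F test of edgeR 4.0.16 (R 4.3.3) on all 4 groups together and without a block, with Benjamini-Hochberg adjustment over all 14660 genes and a threshold of 0.05. The standard error is the size of the log2 fold change over the square root of F. Log2 CPM used a prior count of 2. Alternatives used limma 3.58.1 and DESeq2 1.42.0. Figures were drawn with matplotlib 3.10.9 in Python 3.11.15. The fits were tested on simulated counts of independent libraries. These held no couple effect and no outlying couple, so that test does not cover either situation.

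Pairing was checked as the correlation across genes of how libraries with one number depart from their groups. Soft gel against plastic, it was 0.505, 0.555 and 0.717 for numbers 1, 2 and 3 of passage 6, and for those of passage 3 it was 0.230, 0.414 and 0.434. For each soft gel library, the plastic library of its passage with the same number gave the highest correlation. Couples of one passage and number were treated as pairs. The labels do not state this pairing, and the source of the shared deviations was not tested. Between passages the values ran from -0.291 to 0.0389. The fit with pairs was an alternative to the test without a block. It has a term for each passage and number, and the common biological coefficient of variation was 0.133 with that term and 0.296 without. The counts of replicates differed by a chi-square statistic of at least 30.9 per degree of freedom, so none was treated as a duplicate. Without molecular identifiers, reads are not independent molecules. Single genes named for likeness were the first by the stated measure.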

Additional observations from a re-analysis of the deposited data

How the results depend on the processing

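At both passages Acta2, Tagln and Actb were lower on soft gel under every alternative run, and what changed was the call, mainly with the replicate block, a term for each couple. At passage 3 the log2 fold changes of Acta2, Tagln and Actb became -0.90, -0.64 and -0.31 with the block, all past the threshold, with 2749 genes called in place of 337. At passage 6 they became -1.01, -0.88 and -0.33, with 3650 genes in place of 1460, and the interaction called 314 genes in place of 0. The replicate block changed no other call of the 4 genes. The alternatives in this paragraph that combine the block with another choice were added after the data were seen. With DESeq2's size factors and the block the values were -0.88, -0.62 and -0.29 at passage 3 (2763 genes) and -1.01, -0.88 and -0.32 at passage 6 (3642 genes), all past the threshold, and 310 genes in the interaction. With library totals and the block Acta2 and Tagln passed at -0.77 and -0.51 (3451 genes) and at -0.84 and -0.71 (4854 genes), Actb did not, and the interaction of Actb turned to 0.030 (281 genes). In DESeq2's Wald test with the block Actb passed, at -0.29 and -0.32, but Acta2 and Tagln did not (adjusted p = 0.252 and 0.346 at passage 3, 0.152 and 0.124 at passage 6), with 2975, 3804 and 719 genes called. There the estimated dispersions of Acta2 and Tagln were 0.196 and 0.132, and iterating that estimate 10 times gave 0.0187 and 0.0137. All 3 genes then passed, at -0.88, -0.62 and -0.29 (3043 genes) and -1.01, -0.88 and -0.32 (3864 genes), with 750 in the interaction. With the block and the libraries of 1 passage alone, the values past the threshold were -0.90, -0.63 and -0.31 at passage 3 (4020 genes) and -1.01 and -0.87 for Acta2 and Tagln at passage 6 (2225 genes).

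Without the block, fits of the compared groups alone called Acta2 and Tagln at passage 3, at -0.89 and -0.62 (2109 genes), and 189 genes at passage 6 and 1045 between the passages on soft gel. Leaving out both libraries of couple 3 of passage 6 called Acta2 at passage 3 and 6, at -0.89 and -0.83, with 1036 genes at passage 3 and 2 in the interaction. It turned Vim at passage 6 to -0.061, Tagln between passages to 0.16 on plastic and 0.024 on soft gel, and the interactions of Acta2, Actb and Vim to 0.059, 0.048 and -0.078, none past the threshold. With limma-voom and couples as a random effect Acta2 passed at passage 6, at -1.002, Tagln and Actb did not pass there, none of the 4 passed at passage 3, and 2407, 3434 and 83 genes were called at passage 3, at passage 6 and in the interaction. DESeq2's Wald test called 1256, 2269 and 103 in the same comparisons and 2725 between passages on soft gel. Library totals alone gave 1 gene in the interaction and 520 genes at passage 3, split as 405 higher and 115 lower against 165 and 172 with TMM. The split was 1617 and 444 against 714 and 746 at passage 6, and 1160 and 614 against 991 and 806 between passages on soft gel. This scaling turned the interactions of Acta2 and Actb to 0.034 and 0.040. No filter on low counts turned that of Actb to 0.0013, with 1 gene called.

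Leaving out any 1 library, or any 1 couple with the block, moved the difference at passage 3 between -0.997 and -0.80 for Acta2, -0.75 and -0.52 for Tagln, -0.36 and -0.25 for Actb and -0.10 and 0.13 for Vim, with 34 to 3218 genes called. At passage 6 the ranges were -1.38 to -0.50, -1.34 to -0.29, -0.43 to -0.15 and -0.048 to 0.35, with 878 to 3402 genes. There Acta2 was closest to 0 without soft gel library 3 and Tagln without plastic library 1, and both were farthest from 0 without soft gel library 1. Vim reached 0.35 with the block and without couple 1 of passage 6 (edgeR adjusted p = 0.0554). Between passages on plastic Tagln ran from -0.70 to 0.16, Actb from -0.038 to 0.16 and Vim from -0.61 to -0.24 (878 to 2127 genes), and on soft gel Tagln from -0.90 to 0.024 and Actb from -0.074 to 0.21 (802 to 2013 genes). The interaction ran from -0.49 to 0.39 for Acta2, -0.72 to 0.33 for Tagln, -0.12 to 0.16 for Actb and -0.065 to 0.35 for Vim (0 to 476 genes). The cause was not tested for these changes. Where 1 library of a group of 3 is missing, the pooled spread of the fit stands in for that group. With at least 84117 counts per gene and library, the spread between 3 libraries and not depth limits what could be seen.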
